A study of Mus musculus with 2 samples.

Results

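Tight junction genes were followed across the endothelial and ependymal cells of mouse spinal cord in 2 droplet-based single-cell RNA libraries. The set was 9 genes given by name, of the 24071 genes listed in either table: the claudins Cldn5 and Cldn12, the MARVEL-domain proteins Ocln and Marveld2, the tricellular junction protein Lsr, the junctional adhesion molecules F11r and Jam2, and the scaffold proteins Tjp1 and Cgn. Both libraries came from adult C57BL/6j mice aged 10 to 12 weeks with the genotype Clec9acre/creR26LSLtdTomato/LSLtdTomato. These mice carry Cre in each Clec9a allele (Clec9a encodes the dendritic cell receptor DNGR-1) and a tdTomato reporter behind a stop cassette in each Rosa26 allele, so that a cell that has expressed Clec9a, and its progeny, turn red. Live cells that lacked CD45 and carried CD133, a surface protein of ependymal and some endothelial cells, were sorted into a tdTomato-positive library (CD133+ DNGR-1 traced) and a tdTomato-negative library (CD133+ non-traced). Each group was 1 library and the sources used here do not give the number of mice behind it, so nothing below has a replicate check, no test was possible and no p-value is given.

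Tight junctions seal the space between neighbouring cells. Claudins form the strands and set what passes, occludin and tricellulin (the products of Ocln and Marveld2) organise them, the lipolysis-stimulated receptor Lsr recruits tricellulin to the corners where cells meet, and the adhesion molecules JAM-A (F11r) and JAM-B (Jam2) and the scaffolds ZO-1 (Tjp1) and cingulin (Cgn) tie the strands to polarity proteins and actin. Endothelial cells of the brain and spinal cord carry unusually tight junctions, part of the blood-brain and blood-spinal cord barriers, in which claudin 5 is the main claudin. The ciliated ependymal cells that line the central canal are joined largely by adherens junctions.

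The non-traced library held 25411 cells with 233318692 counted RNA molecules (UMIs, for unique molecular identifiers; median 7218 per cell), and the traced library 4825 cells with 46530507 UMIs (median 8566). The libraries shared 42 cell barcodes. Cells were clustered without the junction genes and named from markers. In the non-traced library 20963 cells were endothelial-like (82.5%, exact 95% binomial interval 82.0 to 83.0). Of these, 4723 were arterial-like, 11316 capillary-like and 3888 venous-like, while 422 were called arterial-capillary and 614 had no zone. Ependymal-like cells numbered 1188 (4.68%, interval 4.42 to 4.94). In the traced library 4766 cells were ependymal-like (98.8%, interval 98.4 to 99.1) and 51 endothelial-like (1.06%, interval 0.788 to 1.39). A further 3260 non-traced and 8 traced cells lay in clusters that carried markers of more than 1 class or had no name. The classes were named from the markers that follow, so the marker levels describe the classes and are no separate check of the names. The 14 arterial markers summed to 4087 CPM (a gene's UMIs scaled to the same total in every class) in arterial-like, 578 in capillary-like and 271 in venous-like cells. The 14 venous markers summed to 2534 CPM in venous-like cells, against 790 and 709 in arterial-like and capillary-like cells. All 10 ependymal markers stood at or above 328 CPM in both ependymal-like classes. The non-traced ependymal-like cells also held endothelial RNA: the 10 endothelial markers summed to 591 CPM there, with 9 of 10 at 10 CPM or more, against 39.3 CPM and 1 of 10 in the traced ependymal-like cells, and none was at 0 in either.

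The first comparison asked how the genes are distributed along the vascular tree, from arterial through capillary to venous endothelium. Every member with appreciable counts was present in all 3 zones at a similar level. Among the 6 members that passed a minimum of 10 CPM, none differed by 1.5-fold or more between arterial-like and capillary-like cells, where 7.93% of 8408 genes tested did, and none between venous-like and capillary-like cells, where 4.33% of 8311 genes did. The widest departures were F11r, higher in arterial-like cells, and Tjp1, higher in venous-like cells. Levels below are CPM of the UMIs summed over a class. They are compared between classes and not between genes. Intervals are exact 95% Poisson intervals for levels and exact conditional intervals for ratios, and allow for counting error alone; animals and sorts may vary more.

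Claudin 5 (Cldn5, ENSMUSG00000041378.2, chr16:18776847-18778262 on the forward strand of GRCm38) was measured at 7268 CPM in arterial-like (interval 7243 to 7292), 7881 in capillary-like (7863 to 7900) and 7980 in venous-like cells (7953 to 8008). After every cell was thinned to 1000 UMIs, 99.3%, 99.8% and 99.8% of the cells still held a Cldn5 UMI, so that practically no endothelial-like cell lacked it. The ratio to capillary-like cells was 0.922 in arterial-like (0.918 to 0.926) and 1.01 in venous-like cells (1.01 to 1.02). These counting intervals were much narrower than the scatter between sub-clusters of a zone, which ran from 7295 to 8928 CPM in the 3 capillary-like and from 5729 to 9244 CPM in the 3 venous-like sub-clusters. The order of the zones was therefore not resolved. Claudin 12 (Cldn12, ENSMUSG00000046798.14, chr5:5489537-5514958, reverse strand), a claudin of broad tissue distribution, was low in all zones, at 4.65 CPM in arterial-like (4.06 to 5.31), 5.28 in capillary-like (4.81 to 5.79) and 4.55 in venous-like cells (3.91 to 5.26). All neighbouring intervals overlapped.

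Occludin (Ocln, ENSMUSG00000021638.12, chr13:100496507-100552718, reverse strand) was at 228 CPM in arterial-like (224 to 233), 268 in capillary-like (264 to 271) and 275 in venous-like cells (270 to 281). Arterial-like cells were lowest, with 0.853 of the capillary-like level (0.834 to 0.873), while the capillary-like and venous-like intervals overlapped. The capillary-like sub-clusters, from 244 to 282 CPM, stood above the arterial-like ones, at 200.5 and 236 CPM. The venous-like sub-clusters, from 215 to 281 CPM, overlapped the arterial-like range, so the order of these 2 zones was not resolved. Tricellulin (Marveld2, ENSMUSG00000021636.15, chr13:100595957-100616971, reverse strand) reached only 7.98 CPM in arterial-like, 7.99 in capillary-like and 7.28 in venous-like cells, from 374, 699 and 293 UMIs, with overlapping intervals throughout. Lsr (ENSMUSG00000001247.16, chr7:30957770-30973464, reverse strand), its partner at tricellular contacts, was at 347 CPM in arterial-like (341 to 352), 318 in capillary-like (314 to 322) and 343 in venous-like cells (337 to 348). Lsr was the most even of the members above 10 CPM between sub-clusters: it kept between 315 and 355 CPM in the 8 sub-clusters named for a zone.

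The adhesion molecules differed in opposite senses between arterial-like and capillary-like cells. F11r (ENSMUSG00000038235.4, chr1:171437535-171464603, forward strand) was at 208 CPM in arterial-like (204 to 212), 169 in capillary-like (166 to 172) and 168 in venous-like cells (164 to 172), a ratio of arterial-like to capillary-like of 1.23 (1.20 to 1.26). The capillary-like and venous-like levels were not distinguishable. Jam2 (ENSMUSG00000053062.16, chr16:84774123-84825928, forward strand) was lowest in arterial-like cells, at 275 CPM (270 to 280), against 323 in capillary-like (319 to 327) and 333 in venous-like cells (327 to 339). Its venous-like sub-clusters, from 267 to 375 CPM, spanned the arterial-like ones (272 and 288 CPM), so its order between these zones was not resolved. Of the scaffolds, Tjp1 (ENSMUSG00000030516.14, chr7:65296165-65527781, reverse strand) was at 431 CPM in arterial-like (425 to 437), 483 in capillary-like (478 to 488) and 580 in venous-like cells (573 to 587), with a venous-like to capillary-like ratio of 1.20 (1.18 to 1.22). Its 3 venous-like sub-clusters, from 574 to 661 CPM, all stood above the arterial-like (430.3 and 433 CPM) and capillary-like ones (420.5 to 509.6 CPM). Cgn (ENSMUSG00000068876.14, chr3:94760069-94786492, reverse strand) was practically undetected, with 0 UMIs in arterial-like, 2 in capillary-like and 4 in venous-like cells, and 3 counts would have given 0.064 CPM in the arterial-like class.

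**Figure D1:**
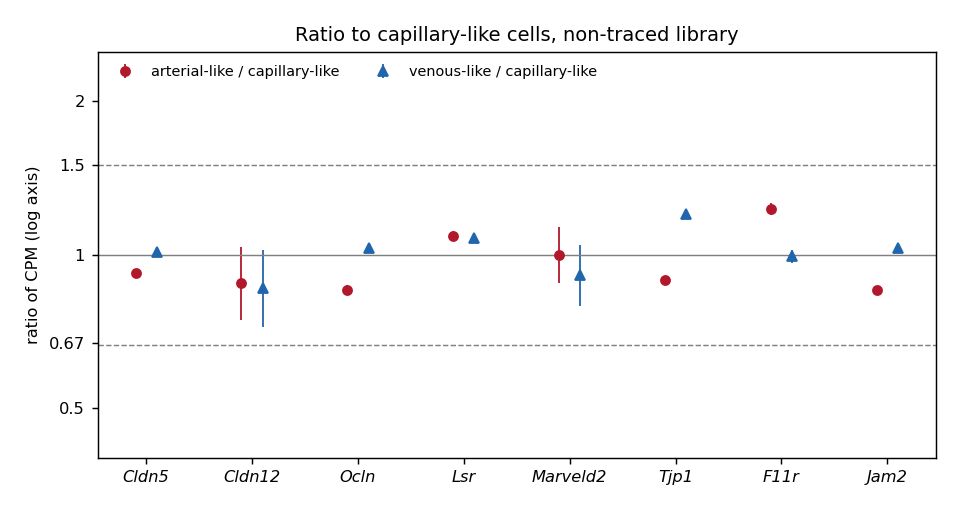
Ratio of CPM (log axis) of arterial-like (circles) and venous-like cells (triangles) to capillary-like cells of the non-traced library for 8 members, with exact 95% counting intervals as bars; dashed lines mark 1.5-fold in either direction, and Cgn, with 6 UMIs in all endothelial-like cells, is left out. Every point lies inside the dashed lines, with F11r (1.23, arterial-like) and Tjp1 (1.20, venous-like) farthest from 1.

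Sub-clusters of a zone differed in some members and not in others. The small venous-like sub-cluster led by Lrg1, Ackr1 and Selp (200 cells), genes of post-capillary and larger venules, held Cldn5 at 5729 CPM, against 8050 and 9244 in the other 2 venous-like sub-clusters, Ocln at 215 against 281 and 254, and Jam2 at 267 against 335 and 375, while Tjp1 was at 661 against 574 and 591 CPM. Lsr, at 350 CPM against 341 and 355, did not separate them. On the arterial side, the sub-cluster led by Fbln5 and Pi16 (1038 cells) held F11r at 235 CPM against 201 in the sub-cluster led by Igfbp3, Vegfc and Gkn3 (3685 cells), Ocln at 200.5 against 236, Cldn5 at 6753 against 7405 and Jam2 at 288 against 272. Lsr, at 349 against 346 CPM, and Tjp1, at 433 against 430.3 CPM, had overlapping intervals in these sub-clusters. Requiring a marker score of 1.5 rather than 1 for a zone, which was tried with the results in view, left only the 200 venous-like cells in the venous class and turned the venous minus capillary difference of Cldn5 from 0.02 to -0.46, that of Ocln from 0.04 to -0.32 and that of Jam2 from 0.04 to -0.27 on the log2(CPM + 1) scale, whereas Tjp1 went from 0.26 to 0.45. Integration of the libraries moved the arterial minus capillary difference of Cldn5 from -0.12 to 0.01. It moved that of Tjp1 further, from -0.16 to -0.41, and left 1691 cells in the venous class. Stress and immune genes led some of these sub-clusters, among them Fos and Nr4a1 in the largest capillary-like one. Icam1, Vcam1, Cxcl1 and Il1r1 were among those leading the largest venous-like one, and Cd14, Ptgs2 and Cxcl11 the venous-like one of 200 cells. The part of these genes in the values was not tested.

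**Figure D2:**
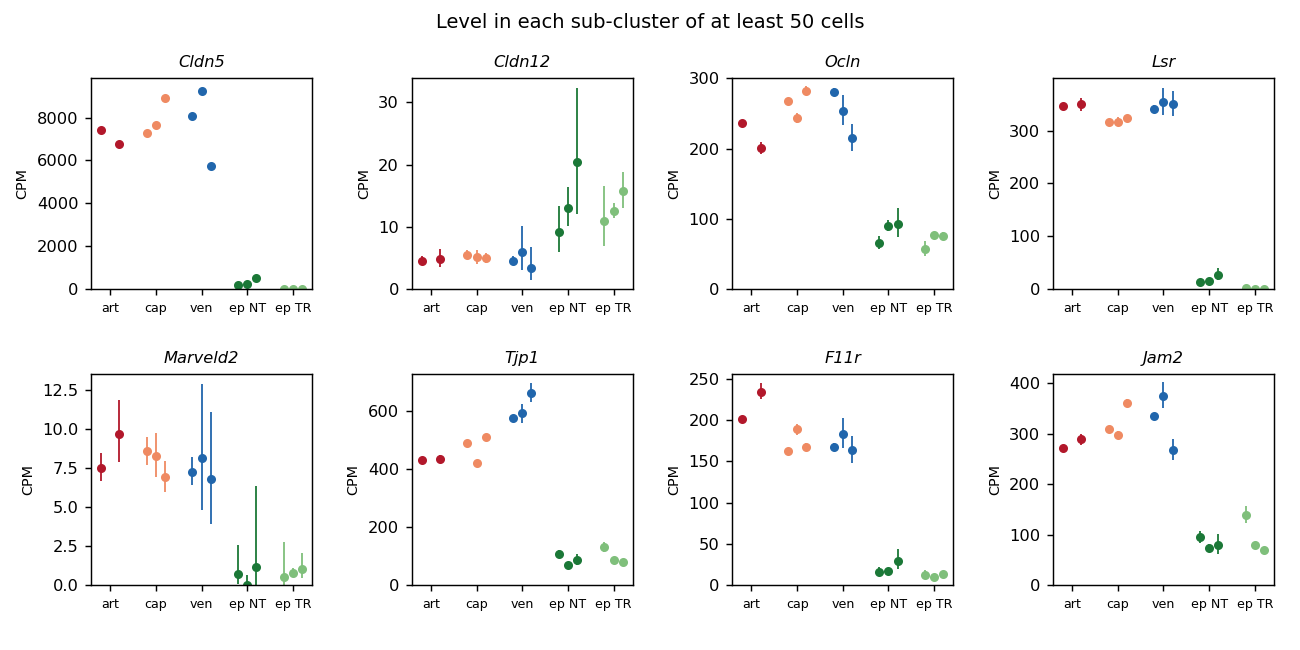
CPM of 8 members in each zone-named endothelial sub-cluster and each ependymal-like cluster with at least 50 cells, with exact 95% Poisson intervals as bars, grouped as arterial-like (art), capillary-like (cap) and venous-like (ven) in the non-traced library and as ependymal-like in the non-traced (ep NT) and traced (ep TR) libraries. Tjp1 is highest in the 3 venous-like points (574 to 661 CPM), Cldn5 spreads from 5729 to 9244 CPM within the venous-like group, and Cldn12 alone is higher in the ependymal-like than in the endothelial-like points.

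The second comparison set endothelial-like against ependymal-like cells within each library. Cldn5, Ocln, Lsr, Tjp1, F11r and Jam2 were higher in endothelial-like cells in both libraries. Their ratios ran from 3.08 for Ocln to 30.5 for Cldn5 in the non-traced library. Among the 7 members past the 10 CPM minimum, Cldn12 alone had the opposite order. In all, 7 of 9 members passed the 10 CPM minimum in each library; Marveld2 and Cgn did not. Of these 7, 6 were higher by at least 1.5-fold, against 27.2% of 10494 genes tested in the non-traced and 30.1% of 10560 in the traced library, and 1 was lower, against 34.6% and 36.8%, so that all 7 differed where 61.8% and 66.9% of all genes did. Cldn12 passed the minimum only through the ependymal-like cells, and in the traced library Cldn5 and Lsr passed it only through the endothelial-like cells. The median log2 difference of the 7 was 2.54 in the non-traced and 2.90 in the traced library, beside -0.08 and -0.10 over all genes tested.

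In the non-traced library Cldn5 stood at 7678 CPM in the endothelial-like (7666 to 7691) and 252 CPM in the ependymal-like class (242 to 262), a ratio of 30.5 (29.3 to 31.8). The ependymal-like level of Cldn5 there depended on which cells were kept: it was 128 CPM with the study's integration, 83.4 CPM without cells that carried endothelial markers and 419 CPM with a stricter cell filter, and the log2(CPM + 1) difference between the classes ran from 4.18 to 6.54. In the traced library it was at 5735 CPM in endothelial-like (5530 to 5946) and 5.25 CPM in ependymal-like cells (4.61 to 5.95), a ratio of 1093 (958 to 1252). The endothelial-like levels of the libraries thus lay within 1.5-fold of each other and the ependymal-like levels did not. Lsr followed the same pattern, at 331 CPM against 15.8 in the non-traced library (ratio 21.0, interval 17.8 to 24.8) and at 293 CPM against 0.936 in the traced library (ratio 313, interval 221 to 450). Marveld2 in the non-traced library was at 7.87 CPM in endothelial-like (7.47 to 8.29) and 0.324 CPM in ependymal-like cells, from 3 UMIs, a ratio of 24.3 (8.30 to 118). Its traced endothelial-like value rests on 1 UMI and could not be compared with the 0.871 CPM of the traced ependymal-like cells.

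Ocln, Jam2 and Tjp1 were present in ependymal-like cells of both libraries. Their Ocln level was 83.3 CPM (77.5 to 89.4; non-traced library) and 76.2 CPM (73.7 to 78.7; traced library), against 256 and 244 CPM in the endothelial-like cells of the same libraries, so that the ratios, 3.08 (2.86 to 3.31) and 3.20 (2.66 to 3.83), overlapped. Jam2 was at 80.7 CPM (75.0 to 86.7) and 81.2 CPM (78.6 to 83.8) in ependymal-like cells, against 311 and 382 CPM in endothelial-like cells, with ratios of 3.85 (3.58 to 4.14) and 4.71 (4.06 to 5.44). Tjp1 was at 82.9 CPM (77.2 to 89.0) and 87.8 CPM (85.1 to 90.5) in ependymal-like cells, against 488 and 663 CPM, with ratios of 5.88 (5.48 to 6.32) and 7.56 (6.75 to 8.45). After thinning to 1000 UMIs, 8.50% and 7.22% of the ependymal-like cells, non-traced first, held an Ocln UMI, against 21.9% of non-traced endothelial-like cells; without thinning the shares were 43.2%, 48.0% and 81.9%.

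F11r was lower in ependymal-like cells but not absent, at 17.7 CPM (15.1 to 20.6; non-traced library) and 10.9 CPM (9.99 to 11.9; traced library), against 179 and 181 CPM in endothelial-like cells. The ratios were 10.1 (8.67 to 11.9) and 16.6 (13.2 to 20.8). The ependymal-like Cldn12 level was 12.5 CPM (10.4 to 15.0; non-traced library) and 13.1 CPM (12.1 to 14.2; traced library), against 4.95 CPM in the endothelial-like class of the non-traced library (4.63 to 5.28), which makes it 2.53-fold higher in ependymal-like cells of the non-traced library (2.07 to 3.07). The traced endothelial-like level, 3.90 CPM, came from 2 UMIs in 51 cells, and the ratio there, 3.36 in favour of ependymal-like cells, had an interval from 0.927 to 27.8 that included 1; with the study's integration the difference no longer reached 1.5-fold. After thinning, 1.09% of non-traced (0.584 to 1.86) and 1.38% of traced ependymal-like cells (1.07 to 1.76) held a Cldn12 UMI, against 0.491% of non-traced endothelial-like cells (0.401 to 0.596); unthinned, the shares were 9.34%, 11.5% and 4.13%. As a background, Foxj1, an ependymal transcription factor that endothelial cells should lack, was found in 0.124% of the thinned endothelial-like cells (0.0810 to 0.182), below the Cldn12 share there at the same median depth of 6920 UMIs. In ependymal-like cells Cgn gave 2 UMIs (non-traced library) and 8 UMIs (traced library), and no difference from endothelial-like cells was detectable at this depth.

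**Figure D3:**
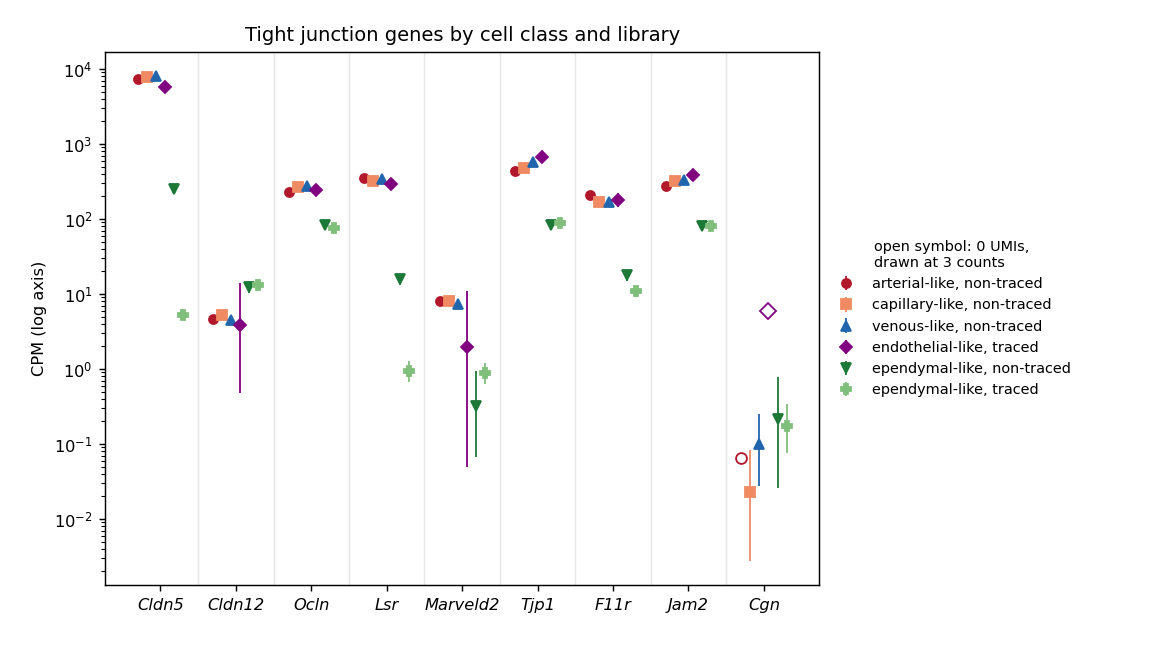
CPM (log axis) of the 9 members in arterial-like, capillary-like and venous-like cells of the non-traced library, endothelial-like cells of the traced library and ependymal-like cells of both libraries, with exact 95% Poisson intervals as bars; open symbols stand for classes with 0 UMIs and are drawn at the level of 3 counts. The endothelial-like points of Cldn5, Ocln, Lsr, Tjp1, F11r and Jam2 lie above the ependymal-like ones, those of Cldn12 below, and the ependymal-like points of Cldn5 and Lsr lie far apart between the libraries.

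The third comparison was of traced with non-traced ependymal-like cells, where Cldn5, Lsr and F11r were lower in traced cells by at least 1.5-fold. Cldn5, with 5.25 CPM against 252 CPM, was 48.0-fold lower in traced cells (42.0 to 55.0), and Lsr, with 0.936 against 15.8 CPM, 16.8-fold lower (11.9 to 24.3). F11r was 1.62-fold lower (1.35 to 1.94), a difference that reached 1.5-fold in 8 of 11 alternatives and not with the study's integration, a pseudocount of 10 CPM or the removal of cells that carried markers of another class. The other 4 members that passed the minimum did not reach 1.5-fold, with traced to non-traced ratios of 1.05 for Cldn12 (0.858 to 1.29), 0.915 for Ocln (0.846 to 0.990), 1.06 for Tjp1 (0.979 to 1.14) and 1.01 for Jam2 (0.930 to 1.09). In this contrast 3 of the 7 members tested were lower and 0 higher, and of 9644 genes 4.68% were lower and 5.27% higher by at least 1.5-fold, 9.94% in all. Lsr and Cldn5 passed the 10 CPM minimum through the non-traced cells alone.

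Endothelial markers differed between the same cells in the same sense, and the levels can be set beside each other as a percentage of the endothelial-like level of the same library. In the non-traced library the 10 endothelial markers stood at 3.32 to 7.45% in ependymal-like cells (median 3.93%), Cldn5 at 3.28%, Lsr at 4.77% and Marveld2 at 4.12%. Cldn5 was thus at the low end of the markers, where its order against Flt1, at 3.32%, was not resolved by the counts. Lsr and Marveld2, the latter from 3 ependymal-like UMIs, were within the range of the markers. F11r at 9.89%, Tjp1 at 17.0%, Jam2 at 26.0%, Ocln at 32.5% and Cldn12 at 253% were above all 10 markers. In the traced library the markers stood at 0.0683 to 5.56% (median 0.109%), the upper end being Kdr alone and the next Pecam1 at 0.152%. Cldn5, at 0.0915%, was among the markers, and Lsr, at 0.320%, was above 9 of the 10. Marveld2 was at 44.6% on 1 endothelial-like UMI; its 40 UMIs in traced ependymal-like cells gave 0.871 CPM (0.622 to 1.19), against 0.324 CPM in non-traced ones, a ratio of 2.69 with an interval from 0.856 to 13.6. F11r was at 6.02%, Tjp1 at 13.2%, Jam2 at 21.2%, Ocln at 31.2% and Cldn12 at 336%. The 5 members above the markers in the non-traced library were above 9 of the 10 in the traced library too. Of these, Ocln, Tjp1, Jam2 and Cldn12 were also above Kdr, while the order of F11r, at 6.02%, against Kdr, at 5.56%, was not resolved by the counts. The share of cells with a Cldn5 UMI after thinning, 12.1% of non-traced (10.3 to 14.1) and 0.147% of traced ependymal-like cells (0.0591 to 0.302), stood beside 10.4% and 0.105% for Ly6c1, an endothelial surface protein, and 7.997% and 0.0629% for Flt1, an endothelial receptor of VEGF. Unthinned, the Cldn5 shares were 49.7% and 0.399%, at median depths of 7159 and 8565 UMIs.

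**Figure D4:**
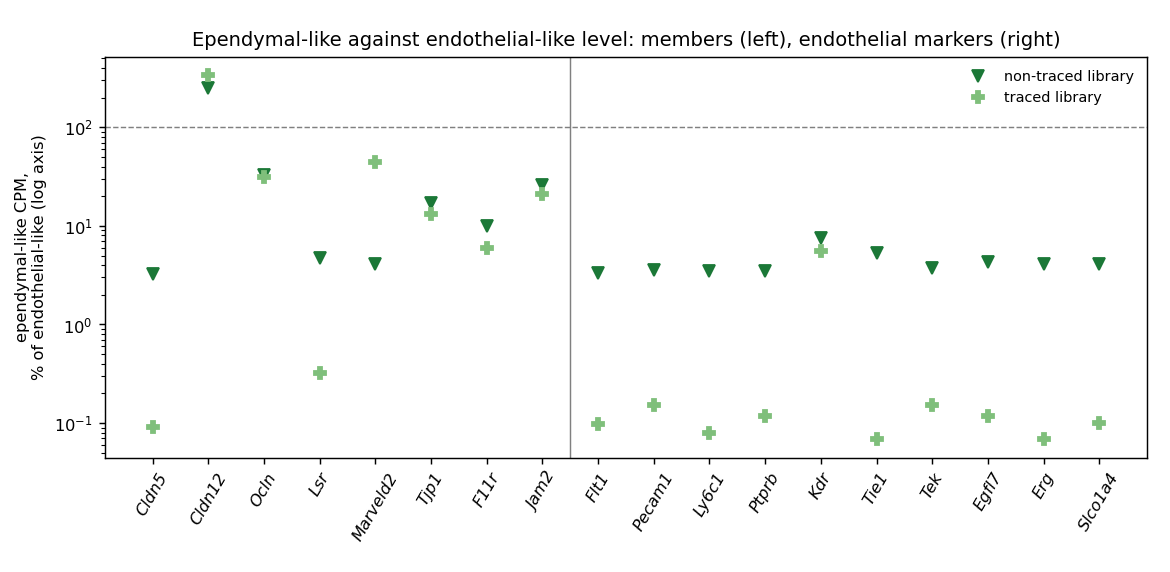
Ependymal-like CPM as a percentage of the endothelial-like CPM of the same library (log axis) for 8 members (left of the line) and 10 endothelial markers (right), in the non-traced (triangles) and traced (crosses) libraries; the dashed line marks equal levels. Cldn5 lies at the low end of the markers in the non-traced (3.28%) and among them in the traced library (0.0915%). Lsr lies among them in the non-traced (4.77%) and above 9 of the 10 in the traced library (0.320%). Ocln, Tjp1, F11r and Jam2 stay between 6.02 and 32.5% in both. The traced Marveld2 point rests on 1 endothelial-like UMI.

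Among traced ependymal-like cells the Cldn5 UMIs were concentrated. Of the 241 in this class, 194 (80.5%) lay in 9 cells of the cluster whose 689 non-traced cells carried ependymal and endothelial markers together. Without these 9 cells, an alternative chosen after the data were seen, Cldn5 stood at 1.03 CPM from 47 UMIs and Lsr at 0.785 CPM from 36 UMIs, whereas Ocln, Tjp1 and Jam2 stayed at 76.0, 87.4 and 81.1 CPM. Of the 1188 non-traced ependymal-like cells, 700 held UMIs of 2 or more endothelial markers, against 30 of 4766 traced ones. With those cells left out Cldn5 had 83.4 CPM in the non-traced and 0.286 CPM in the traced library, Lsr 9.37 and 0.791 CPM and F11r 16.0 and 10.9 CPM. Under this setting F11r no longer reached 1.5-fold, Lsr fell under the 10 CPM minimum, and Cldn5 was the single member still called.

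The ependymal-like clusters differed among themselves in Jam2 and Tjp1. The cluster led by Ucma and Pamr1 held Jam2 at 138 CPM in its 202 traced cells and 94.4 CPM in its 379 non-traced cells, against 78.9 and 73.8 CPM in the largest cluster and 69.7 and 79.6 CPM in the cluster led by Sntn and Pvalb. Tjp1 was ordered likewise, at 130 and 107 CPM in the first, 86.7 and 69.8 CPM in the largest and 77.4 and 86.4 CPM in the last. Ocln had the opposite order, with 56.9 and 65.9 CPM in the first cluster against 77.4 and 90.6 CPM in the largest one. In each case the cluster led by Ucma and Pamr1 stood on the same side of the largest cluster in both libraries, and the 95% counting intervals of the 2 clusters did not overlap. Another cluster, led by Hist1h1b and Mki67, held 46 traced ependymal-like cells. Their Jam2 level was 153 CPM (125 to 186), above the traced cells of the largest cluster. High Jam2 was therefore not particular to the cluster led by Ucma and Pamr1. Tjp1, at 111 CPM (87.3 to 140), and Ocln, at 61.6 CPM (44.2 to 83.6), had intervals that overlapped those of the largest cluster.

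The fourth comparison was the 51 traced with the 20963 non-traced endothelial-like cells. None of the 6 members that passed the minimum differed by 1.5-fold, where 23.6% of 8638 genes did (14.3% higher and 9.31% lower in traced cells). In the traced class 3 counts made 5.85 CPM, so genes near the 10 CPM minimum rested on few UMIs there. The 6 members rested on 93 to 2939 UMIs, so the share over all genes is not a like background for them. Cldn5, at 5735 against 7678 CPM, had a ratio of 0.747 (0.720 to 0.774), Tjp1, at 663 against 488 CPM, of 1.36 (1.22 to 1.51), and Jam2, at 382 against 311 CPM, of 1.23 (1.06 to 1.42). The intervals of Ocln (0.793 to 1.14), Lsr (0.749 to 1.04) and F11r (0.818 to 1.24) included 1. The classes differed in their make-up: 21 of the 51 traced cells were arterial-like, 20 capillary-like and 5 venous-like, and the 9 pericyte markers summed to 1015 CPM in the traced and 551 CPM in the non-traced endothelial-like cells. The part of either in the values was not tested.

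Taken cell by cell at 3000 UMIs, endothelial-like cells held several members at a time. The median was 4 of the 9 members in arterial-like, capillary-like and venous-like cells, and 62.0%, 64.6% and 68.6% of them held 4 or more. Ependymal-like cells held a median of 1 member in each library, and 33.2% of non-traced and 46.0% of traced cells held none. At this depth 26.5% of non-traced and 0.213% of traced ependymal-like cells held a Cldn5 UMI. Shares of Lsr (3.18% and 0.171%) and F11r (5.07% and 3.16%) were also lower in traced cells. Those of Ocln (20.4% and 20.0%), Tjp1 (22.0% and 22.2%) and Jam2 (20.6% and 20.5%) were close in the 2 libraries. Cells shallower than 3000 UMIs were left out here (184 non-traced endothelial-like, 24 non-traced and 81 traced ependymal-like cells).

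Other junction genes were taken from a fixed list of which 54 were in the tables. Between zones few of them differed by 1.5-fold: 1 of 26 tested was higher and 2 lower in arterial-like than in capillary-like cells (5.11% and 2.82% of all genes tested were), and 3 of 28 were higher and 0 lower in venous-like cells (2.62% and 1.71%), none of these at 50 CPM or more. These were named after their values were seen. Cdh2, the neural cadherin, was ordered along the tree, at 14.4 CPM in arterial-like, 26.3 in capillary-like and 41.1 in venous-like cells. Marveld1 was at 36.1 CPM in arterial-like against 10.1 CPM in capillary-like cells and Igsf5, of the immunoglobulin family, at 14.5 against 24.8 CPM, while Pard6g, a polarity protein, was at 19.5 CPM and the adhesion molecule Nectin2 at 19.1 CPM in venous-like cells, against 7.97 and 10.8 CPM in capillary-like cells. Between endothelial-like and ependymal-like cells 23 of the 24 list genes with at least 50 CPM in either class were past 1.5-fold in the non-traced and 22 of 24 in the traced library, where 65.7% and 68.6% of all genes at that level were. All 22 were also among the 23, with the same direction. Among the adhesion proteins of the immunoglobulin family, Esam, an endothelial adhesion molecule, was at 1056 against 44.6 CPM in the non-traced and 868 against 1.04 CPM in the traced library. Jam3, which encodes JAM-C, had the reverse order, at 5.44 against 109 and 7.81 against 101 CPM, as did Cxadr, the coxsackievirus and adenovirus receptor, at 0.255 against 78.2 CPM in the non-traced library and 0 UMIs against 98.1 CPM in the traced library. Within this family F11r, Jam2 and Esam were thus higher in endothelial-like cells and Jam3 and Cxadr in ependymal-like cells, with F11r and Jam2 found in both.

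Scaffold genes were also found in either order. Cgnl1, a paralogue of Cgn known as paracingulin, was at 237 against 14.5 CPM in the non-traced and 289 against 6.40 CPM in the traced library, although Cgn itself was hardly detected in either class. Arhgef2, a cingulin-binding exchange factor, was at 121 against 20.0 and 164 against 15.6 CPM. Magi2 was higher in ependymal-like cells, at 95.5 against 2.42 and 114 against 1.95 CPM, as was Mpdz, which encodes the multi-PDZ protein MUPP1, at 137 against 20.5 and 177 against 35.1 CPM. The tricellular family member Ildr2 was higher in ependymal-like cells, at 136 against 35.0 CPM in the non-traced and 140 against 25.4 CPM in the traced library, the reverse of Lsr. Of the adherens junction genes, Cdh5, the endothelial cadherin, was at 606 against 20.3 CPM and 728 against 0.740 CPM, and Jup, which encodes plakoglobin, at 160 against 33.9 and 123 against 27.1 CPM. Cdh2 was higher in ependymal-like cells, at 191 against 26.2 and 225 against 31.2 CPM, as was Nectin3, at 52.9 against 9.49 and 53.1 against 7.81 CPM. In the contrast of traced with non-traced ependymal-like cells 0 of 30 tested genes of this list were higher and 4 were lower by 1.5-fold, beside the 5.27% and 4.68% of all genes given above; the 4 were Esam, Cgnl1, Cdh5 and Amotl1, the last at 13.1 against 21.8 CPM.

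Over the 20 library parts of clusters with at least 50 cells, the genes whose log2(CPM + 1) was most like each member were given by Pearson's r as a description; these parts share 2 libraries and their levels are governed by the contrast of endothelial-like and ependymal-like cells. For Cldn5 they were Egfl7 (0.998), Flt1 (0.997) and Ly6c1 (0.997), for Lsr Anxa3, S100a13 and Rasip1 (0.998 each), and for F11r Cltb (0.994), Fam129b (0.994) and Myl12a (0.993). For Tjp1 they were Ybx3 (0.993), Smap1 (0.989) and Dab2ip (0.988), for Ocln Snx3 (0.983), Ppp1r13b (0.977) and Tmem123 (0.977), for Jam2 Slc10a7 (0.970), Dab2 (0.970) and Tspan4 (0.969). Cldn12 and Marveld2 differed in this respect: for Cldn12 the likeness was lower, with Tmem185a at 0.954, Kif1b at 0.951 and 4921504A21Rik at 0.949, and Marveld2 never reached the 20 CPM that the rule asks for.

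Promoter sequence is shown for Cldn5 and Lsr, which had the largest endothelial-like to ependymal-like ratios of the 7 members that passed the minimum, and for Cldn12, which had the opposite order. RefSeq sequence on GRCm38.p6 covered 8 of the 9 members, in 12 windows of the 250 bases before a start; Jam2 had no entry. Windows were searched on both strands for CCGGAA (the ETS core), ACAATG (SOX), GTAAACA (FOX) and GTTGCC (RFX), and matches are in capitals. The ETS letters were in windows of 3 genes, Cldn12, Ocln and Lsr, and are in 12.0% of all 32851 windows; the RFX letters were in 1 window, of Ocln (10.4% of all windows), and the SOX (10.7%) and FOX letters (3.17%) in none. The windows lie at chr16:18776597-18776846 on the forward strand (Cldn5), chr7:30973470-30973719 on the reverse strand (Lsr) and chr5:5514977-5515226 on the reverse strand (Cldn12), each before the annotated gene, and are written 5′ to 3′.
Cldn5: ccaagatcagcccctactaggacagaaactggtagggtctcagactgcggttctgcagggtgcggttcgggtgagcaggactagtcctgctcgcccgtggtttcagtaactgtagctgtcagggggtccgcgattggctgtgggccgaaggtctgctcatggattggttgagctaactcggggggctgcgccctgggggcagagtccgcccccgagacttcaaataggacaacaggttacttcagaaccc
Lsr: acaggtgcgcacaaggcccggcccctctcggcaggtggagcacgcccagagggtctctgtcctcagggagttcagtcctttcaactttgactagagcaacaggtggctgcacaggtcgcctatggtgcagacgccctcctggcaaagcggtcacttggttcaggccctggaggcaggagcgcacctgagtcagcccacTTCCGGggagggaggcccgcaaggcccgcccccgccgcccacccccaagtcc
Cldn12: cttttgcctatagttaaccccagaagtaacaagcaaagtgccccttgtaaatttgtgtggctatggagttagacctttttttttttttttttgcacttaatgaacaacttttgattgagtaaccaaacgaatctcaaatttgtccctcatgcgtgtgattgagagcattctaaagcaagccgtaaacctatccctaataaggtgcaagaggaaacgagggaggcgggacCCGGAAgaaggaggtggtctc
The capitals in Lsr and Cldn12 are the ETS letters, on the reverse strand in Lsr. G and C made up 59.6% of the Cldn5 and 66.8% of the Lsr window. Of the 3 overlapping Cldn12 windows the first, with 42.0%, is printed, and the others held 58.8 and 65.2%, each with the ETS letters. The first bases after the start lay in 1 GENCODE M21 transcript for Cldn5, but in 0 for the printed Lsr and Cldn12 windows. For the second Cldn12 window they lay in 3. A match is a description of these letters only.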

How the data were processed

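Droplet-based single-cell RNA sequencing (3′ kit) was performed on 2 libraries, 1 per group. Per the labels, the deposited values are UMI counts per gene and cell, made by the authors with Cell Ranger 3.0.2 and STAR 2.5.1b on mm10 with reporter sequences added, and not normalised. The processing notes also name R 3.6.0 and Seurat 3. How reads of overlapping or near-identical genes were counted can change their values. The study's filter (at least 50 genes, mitochondrial genes at most 10% of those detected) left all cells. Groups came from the labels. The 9 genes and all lists were chosen with earlier results of these data known.

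Both libraries were merged and clustered in scanpy 1.11.5 (2000 variable genes without the members, the wider junction list and the reporter rows, 20 components, 20 neighbours, resolution 0.8). They were not integrated, because an earlier integration had placed cells in clusters whose markers they lacked; integration as in the study (Seurat 5.3.0, R 4.3.3) was an alternative. Each library part of a cluster was named from fixed markers, and stayed unnamed where fewer than 3 of them were found in 50% of its cells or where it held fewer than 50 cells in all, and was called mixed where another class had 50% of its markers in 50% of its cells. Endothelial-like cells were clustered again; a zone needed the highest mean marker level, at least 1 above the mean of the sub-clusters for arterial and venous. These thresholds were set after the data were seen. The study's own cell names were not used, which can by itself move values away from the study's. Scrublet called 2209 of 25411 non-traced (8.69%, 20.3% expected) and 0 of 4825 traced cells (3.86% expected); doublets were kept.

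UMIs were summed per class and scaled to CPM, with exact 95% Poisson intervals, and differences taken as log2(CPM + 1). A gene was called past 1.5-fold with at least 10 CPM in either class. Folds were computed on CPM without the pseudocount. Shares were taken on cells thinned to 1000 UMIs, with exact Clopper-Pearson intervals; no cell was shallower. A count of 0 is given beside the level of 3 counts. Intervals and floors cover counting error only. Sums, contrasts and ratio intervals were tested on simulated counts, and thinning on cells of these data. Clustering, class and zone naming, correlations and the motif search were not tested in this way. All 9 members were described; other junction genes are counted where they passed 1.5-fold at 50 CPM or more, and up to 4 per group with the largest difference are named. Gene positions are from GENCODE M21, matched by symbol. With 1 library per group no test, blocked fit or left-out replicate was possible.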

Additional observations from a re-analysis of the deposited data

How the results depend on the processing

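No paired analysis was possible because each group was 1 library, and for the same reason no replicate could be left out. Counts of members past 1.5-fold were recomputed under 11 alternatives for 6 contrasts in each direction; 129 of these counts were within 1.5 times of the reported one and 3 were not. With the study's integration 0 members were lower in traced endothelial-like than in ependymal-like cells, instead of 1 (Cldn12, from -1.53 to -0.56 on the log2 scale, both on few UMIs). With no filter on low values 1 member was lower in traced than in non-traced endothelial-like cells, instead of 0 (Marveld2, on 1 UMI). Without cells that carried markers of another class 1 member was lower in traced than in non-traced ependymal-like cells, instead of 3, since F11r went from -0.65 to -0.52 and Lsr fell under the 10 CPM minimum. F11r was also under 1.5-fold with a pseudocount of 10 CPM (-0.41) and with integration (-0.49). No called difference changed sign. The Cldn5 difference between ependymal-like cells ran from -6.96 to -4.10. Single log2 differences stayed within their counting interval in 499 of the recomputed values and left it in 95. Shares depended on depth: 106 of the shares without thinning or at 3000 UMIs lay outside the interval at 1000 UMIs, and 20 within. The traced endothelial-like class, with 51 cells, limits every value of Cldn12, Marveld2 and Cgn there.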

Other observations

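Library parts of clusters called mixed entered no comparison between classes, but were among the parts used for the correlations. The non-traced endothelial-like class still held a sub-cluster led by pericyte genes such as Rgs5 and Vtn (521 cells). It also held a sub-cluster led by haemoglobin genes (64 cells). Neither was named for a zone, and their part in the endothelial-like values was not tested. In the 689 non-traced cells with ependymal and endothelial markers, whose median depth was 13668 UMIs against 7159 in ependymal-like and 6920 in endothelial-like cells of that library, Cldn5 was at 4137 CPM, Tjp1 at 316, Jam2 at 201, Lsr at 193, Ocln at 173, F11r at 106 and Cldn12 at 9.32 CPM, each between the levels of the ependymal-like and the endothelial-like class. In the 1335 cells with pericyte and endothelial markers Cldn5 was at 5221 CPM, Tjp1 at 474 and Lsr at 235 CPM, and in the 386 cells with smooth muscle, endothelial and pericyte markers Cldn5 was at 3664, Tjp1 at 353 and Lsr at 199.8 CPM. In the 123 cells with astrocyte and endothelial markers Jam2, at 262 CPM, was at 0.844 of its endothelial-like level while Ocln, at 83.0 CPM, was at 0.324 and Cldn5, at 2500 CPM, at 0.326 of theirs.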
